A study of Mus musculus with 8 samples.

Results

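Chromatin loops at 9 mouse genes that encode secreted chemokines and colony-stimulating factors were examined in pancreatic cancer cells. The genes were Cxcl1, Cxcl2, Cxcl5, Ccl2, Ccl20, Cx3cl1, Csf1, Csf2 and Csf3, taken by name from 21728 protein-coding genes. A loop belonged to a gene when 1 of its 2 anchors lay within 2 kb of an annotated transcription start of that gene in the mm10 assembly. By this rule 6 of the 9 genes had loops, and 192 of the 249200 distinct loops of the series fell to them. Cxcl1, Ccl2 and Cx3cl1 had no anchor at a start and therefore no loop.

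The measurement was Hi-ChIP, which ligates DNA ends that lie close together in the nucleus and then enriches, by immunoprecipitation, the fragments bound by a chosen protein. The proteins were FOXA1, a forkhead factor, and HNF4G, a nuclear receptor, and each was profiled in a line from a primary tumour of the KPC mouse (KPC tumour) and in the matched line from a liver metastasis (liver mets). The comparison asked how looping at each factor differs between primary and metastatic cells. The 8 samples formed 4 groups of 2 replicates, and every sample carried the label WT for genotype and Untreated for treatment, the animals' ages not being given. Both replicates of a group stood in 1 loop list, so there was no value per replicate, no spread between replicates and no test between groups. Each tissue context was 1 cell line, so a difference between lists cannot be told apart from a difference between these lines. The lists held loops and no expression levels, so neither the transcript level of a member gene nor the labelled cell type could be checked. The FOXA1 tumour list held 104136 loops, the FOXA1 liver mets list 125623, the HNF4G tumour list 76323 and the HNF4G liver mets list 78098. Values below are given in this order unless stated.

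Chemokines are small secreted proteins that bind receptors on leukocytes and direct their movement. Cxcl1, Cxcl2 and Cxcl5 bind Cxcr2 and attract neutrophils, Ccl2 attracts monocytes through Ccr2, Ccl20 attracts Ccr6-positive lymphocytes and dendritic cells, and Cx3cl1 is a membrane-tethered ligand of Cx3cr1. Csf1 (M-CSF), Csf2 (GM-CSF) and Csf3 (G-CSF) drive the growth and maturation of macrophages, of granulocytes with macrophages, and of neutrophils. Pancreatic tumors are known for a dense infiltrate of such myeloid cells. Many chemokine genes arose by local duplication and still sit side by side, as Cxcl5, Ppbp, Pf4, Cxcl3, Cxcl15, Cxcl1 and Cxcl2 do on mouse chromosome 5.

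The promoters of 6 of the 9 genes were in the RefSeq promoter table of GRCm38.p6, which gives the 250 bases before and the 50 bases from each start. Those of Cxcl1 and Cxcl2 are shown because these duplicated genes differ in whether an anchor lay within 2 kb. Those of Ccl20 and Csf1 are shown as examples of genes whose anchor covered the start itself, as that of Csf2 also did. Capitals mark matches to a kappaB motif, the letters GGNNTTTCC read on either strand, to which NF-kappaB factors bind. The Cxcl1 window is chr5:90890995-90891294 (+ strand), the Cxcl2 window chr5:90903649-90903948 (+ strand), the Ccl20 window chr1:83116516-83116815 (+ strand) and the Csf1 window chr3:107760420-107760719 (− strand, printed 5′ to 3′ along the gene).
Cxcl1: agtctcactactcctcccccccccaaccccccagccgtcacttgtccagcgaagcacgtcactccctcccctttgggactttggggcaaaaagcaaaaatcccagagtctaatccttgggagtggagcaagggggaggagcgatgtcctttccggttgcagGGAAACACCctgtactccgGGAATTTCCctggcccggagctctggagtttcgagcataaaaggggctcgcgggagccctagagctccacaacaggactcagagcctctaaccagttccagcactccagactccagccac
Cxcl2: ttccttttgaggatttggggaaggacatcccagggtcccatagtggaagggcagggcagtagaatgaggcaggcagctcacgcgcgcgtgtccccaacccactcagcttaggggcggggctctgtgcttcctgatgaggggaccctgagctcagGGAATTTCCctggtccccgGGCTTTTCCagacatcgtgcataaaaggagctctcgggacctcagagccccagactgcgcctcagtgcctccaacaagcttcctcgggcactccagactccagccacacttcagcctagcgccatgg
Ccl20: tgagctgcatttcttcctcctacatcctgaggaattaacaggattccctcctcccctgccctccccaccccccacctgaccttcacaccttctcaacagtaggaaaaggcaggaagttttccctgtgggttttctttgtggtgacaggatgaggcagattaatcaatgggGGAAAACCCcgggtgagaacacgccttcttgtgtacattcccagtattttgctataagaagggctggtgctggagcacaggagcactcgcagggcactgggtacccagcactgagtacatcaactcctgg
Csf1: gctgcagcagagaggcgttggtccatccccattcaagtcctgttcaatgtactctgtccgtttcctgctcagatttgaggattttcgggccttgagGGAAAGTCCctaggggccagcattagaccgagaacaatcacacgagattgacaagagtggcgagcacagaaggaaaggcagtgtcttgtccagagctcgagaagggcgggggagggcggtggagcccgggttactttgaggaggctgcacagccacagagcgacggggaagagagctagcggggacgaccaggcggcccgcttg
Cxcl1 and Cxcl2 held 2 kappaB matches each, and their first bases lay 19 bases apart in both genes. Ccl20, Csf1 and Csf2 held 1 match each, and Cx3cl1 held 0. Of all 32851 RefSeq promoter windows 5.82% held this motif. No window of these 6 genes held a forkhead match (TGTTTAC or TGTTTGC), an HNF4 match (CAAAGTCCA) or an AP-1 match (TGANTCA), on either strand. The shares of all promoter windows with those letters were 8.48%, 0.475% and 7.81%. A match is a match of letters and not a bound site.

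Partner anchors with no protein-coding start within 2 kb were read from the same genome, for loops of member start anchors listed in all 4 lists. Some lay close to the gene: the Csf1 partner shown was 4.71 kb from a start of Csf1, and the Csf3 partner shown 3.86 kb from that of Csf3. Capitals mark forkhead matches, on either strand, in 120-base windows printed along the + strand. Each window was placed where its anchor held the most forkhead and HNF4 matches, and the last window on an HNF4 match. The windows are therefore denser in matches than their anchors. The window from the Csf1 partner is chr3:107768627-107768746, that from the Csf3 partner is chr11:98696242-98696361, and that from the Cxcl5 partner is chr5:90718066-90718185. In the last line, from the same Csf1 partner (chr3:107766142-107766261), capitals mark its HNF4 match instead.
Csf1 partner: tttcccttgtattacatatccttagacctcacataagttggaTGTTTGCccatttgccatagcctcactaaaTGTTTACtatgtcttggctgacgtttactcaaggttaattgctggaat
Csf3 partner: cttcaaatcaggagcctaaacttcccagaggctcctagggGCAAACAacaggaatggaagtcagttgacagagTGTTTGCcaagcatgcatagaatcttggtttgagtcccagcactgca
Cxcl5 partner: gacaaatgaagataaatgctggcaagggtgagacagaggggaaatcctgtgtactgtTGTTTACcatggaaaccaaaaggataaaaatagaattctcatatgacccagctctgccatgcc
Csf1 partner, HNF4 match: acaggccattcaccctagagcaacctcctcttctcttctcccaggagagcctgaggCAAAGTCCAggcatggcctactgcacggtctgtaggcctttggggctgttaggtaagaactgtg
The Csf1 partner held 4 forkhead matches in 4222 bp (0.947 per kb), the Csf3 partner 2 in 1310 bp (1.53 per kb) and the Cxcl5 partner 1 in 2344 bp (0.427 per kb). All 30542 anchors together held 0.407 forkhead matches per kb, and 62.5% of them held at least 1. An HNF4 match was found in 4.4% of all anchors and, of the anchors at member starts, inside the Cxcl cluster and among these partners, in that Csf1 partner alone. Of the other Csf3 partners of this kind, those at 15.56 kb and 81.69 kb held 0 forkhead matches and that at 77.24 kb held 1. The other Cxcl5 partner of this kind, chr5:90775802-90778851, held 0 in 3050 bp.

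Loop numbers differed widely between the member genes. In the FOXA1 tumour list 6 of the 9 members had a loop, against 47.4% of all protein-coding genes. In the FOXA1 liver mets list 6 of 9 had one against 48.0%, in the HNF4G tumour list 5 of 9 against 45.7%, and in the HNF4G liver mets list 6 of 9 against 46.0%. The member missing from the HNF4G tumour list was Ccl20. Across the 10786 genes with a loop in any list, the median was 6, 7, 5 and 5 loops per gene, with an upper quartile of 12, 14, 10 and 10. All intervals below are 95% intervals, cover counting error only and treat loops as independent, although loops of a gene share its anchor.

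**Figure D1:**
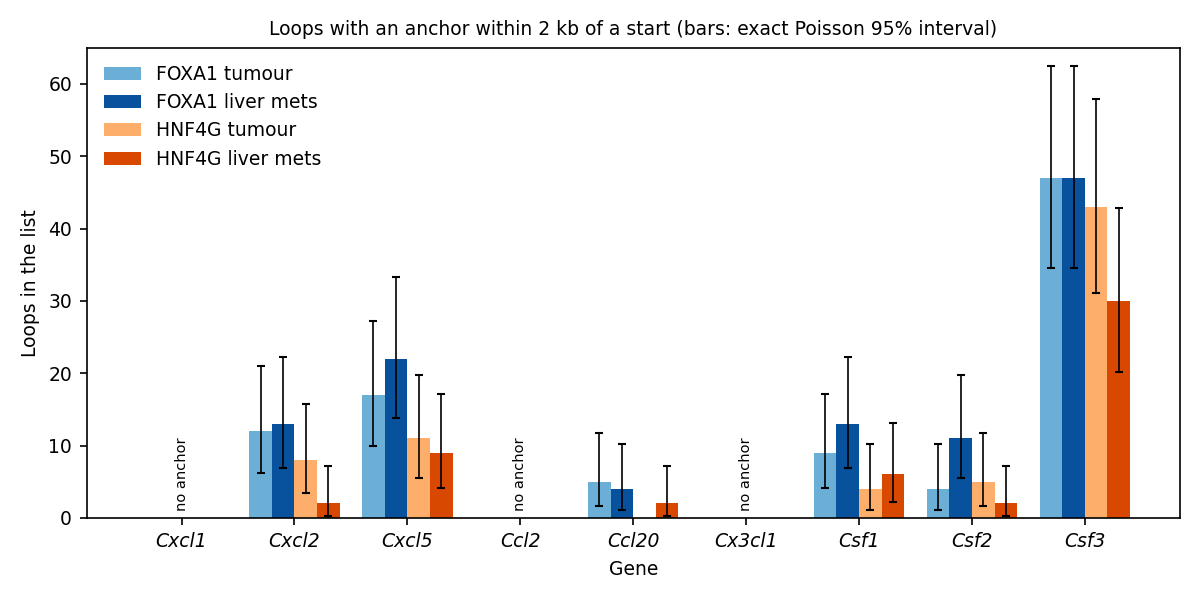
Loops per list (vertical axis, number of loops) with an anchor within 2 kb of a start of each of the 9 genes (horizontal axis), one bar for each of the 4 lists, error bars giving the exact Poisson 95% interval. Csf3 stands highest with 30 to 47 loops, Cxcl5 follows with 9 to 22, and Cxcl1, Ccl2 and Cx3cl1 have no anchor.

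Among the CXC ligands that were members, Cxcl5 (ENSMUSG00000029371.7, chr5:90759360-90761624, + strand) had the most loops. Its anchor, chr5:90756176-90761151, was 4976 bp long and covered the start together with exons and introns of the gene. It had 17 loops in the FOXA1 tumour list (interval 9.9 to 27.2), 22 in FOXA1 liver mets (13.8 to 33.3), 11 in HNF4G tumour (5.49 to 19.7) and 9 in HNF4G liver mets (4.12 to 17.1). Both FOXA1 lists were above both HNF4G lists, and all 4 intervals overlapped. These counts lay at percentiles 84.0, 86.7, 77.2 and 71.1 of genes with a loop. With starts counted within 5 kb, Cxcl5 had 28, 42, 16 and 16 loops.

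Cxcl2 (ENSMUSG00000058427.10, chr5:90903871-90905938, + strand) was reached through an intergenic anchor, chr5:90899611-90902204, that ended 1667 bp before its start. The gene had 12 loops in FOXA1 tumour, 13 in FOXA1 liver mets, 8 in HNF4G tumour and 2 in HNF4G liver mets. The last list was the low one, with an interval of 0.242 to 7.22 that just met that of FOXA1 liver mets, 6.92 to 22.2. When the start had to lie inside the anchor, Cxcl2 had no loop in any list.

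Cxcl1 (ENSMUSG00000029380.11, chr5:90891241-90893115, + strand) lay between Cxcl15 and Cxcl2 and had no anchor at its starts. The nearest anchor, chr5:90884197-90886642, was 4.6 kb upstream and had 8, 16, 3 and 1 loops. It was thus present in all 4 lists but outside the 2 kb limit, as the nearest anchor was for 4.0% of all protein-coding genes (between 2 and 5 kb). The Cxcl1 promoter printed above therefore lay outside every anchor.

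Of the CC chemokines, Ccl20 (ENSMUSG00000026166.14, chr1:83116766-83119167, + strand) had few loops. Its anchor, chr1:83115859-83118033, covered the start and was 2175 bp long. The counts were 5 in FOXA1 tumour (1.62 to 11.7), 4 in FOXA1 liver mets (1.09 to 10.2), 0 in HNF4G tumour and 2 in HNF4G liver mets (0.242 to 7.22). The interval of a count of 0 reaches 3.69 loops, and all 4 intervals overlapped. All 4 counts were below the median gene.

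Ccl2 (ENSMUSG00000035385.5, chr11:82035571-82037453, + strand) stood far from any anchor. The nearest, chr11:81409598-81413913, was 622 kb away and had 3, 2, 0 and 1 loops. The gene lay in a stretch of 1350 kb without an anchor in any list, which also held the neighboring chemokine genes Ccl7, Ccl11, Ccl12, Ccl8 and Ccl1. Of 30522 such stretches between neighboring anchors 265 were at least as long, and 6.43% of protein-coding genes were at least as far from an anchor as Ccl2. Cx3cl1 (ENSMUSG00000031778.13, chr8:94772009-94782427, + strand) had its nearest anchor, chr8:94765430-94768110, at 3.9 kb, with 4, 9, 4 and 3 loops.

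Among the colony-stimulating factors, Csf3 (ENSMUSG00000038067.2, chr11:98701263-98703629, + strand) had the most loops of all members. The counts were 47 in FOXA1 tumour (34.5 to 62.5), 47 in FOXA1 liver mets (34.5 to 62.5), 43 in HNF4G tumour (31.1 to 57.9) and 30 in HNF4G liver mets (20.2 to 42.8). HNF4G liver mets was lowest and the intervals overlapped. The counts lay at percentiles 98.6, 97.6, 98.9 and 97.2 of genes with a loop. The Csf3 anchor, chr11:98700467-98711704, was 11238 bp long, at percentile 99.8 of anchor width, and also lay within 2 kb of a start of Med24, a Mediator subunit gene, and of Gm22059. Its loops therefore cannot be assigned to Csf3 alone, and sums below are also given without it.

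Csf1 (ENSMUSG00000014599.10, chr3:107741048-107760469, − strand) had an anchor over its start, chr3:107758688-107761139. It had 9 loops in FOXA1 tumour (4.12 to 17.1), 13 in FOXA1 liver mets (6.92 to 22.2), 4 in HNF4G tumour (1.09 to 10.2) and 6 in HNF4G liver mets (2.2 to 13.1). With starts counted within 5 kb, Csf1 had 24, 41, 12 and 16 loops. Csf2 (ENSMUSG00000018916.5, chr11:54247271-54249667, − strand) had an anchor over its start, chr11:54247817-54250881, that also lay near a start of Gm12223. It had 4 loops in FOXA1 tumour (1.09 to 10.2), 11 in FOXA1 liver mets (5.49 to 19.7), 5 in HNF4G tumour (1.62 to 11.7) and 2 in HNF4G liver mets (0.242 to 7.22). For Csf1 and Csf2 the FOXA1 liver mets list was highest, with intervals that overlapped those of the other lists.

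Loops of each member were next compared between lists. With 1 list per group, a gene was called different when its count with 1 loop added differed at least 1.5-fold. From FOXA1 tumour to FOXA1 liver mets only Csf2 was called higher (ratio 2.4 with 1 added), as were 27.5% of genes, and 0 members were called lower against 12.7% of genes. From HNF4G tumour to HNF4G liver mets Ccl20 was called higher (ratio 3.0, from 0 to 2 loops), against 22.4% of genes. In the same comparison Cxcl2 (ratio 0.333) and Csf2 (ratio 0.5) were called lower, against 22.7% of genes. Counts this small move past the limit with 1 or 2 loops.

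In the tumour line Cxcl5 (1.5), Ccl20 (6.0) and Csf1 (2.0) were called higher with FOXA1 than with HNF4G, against 37.4% of genes, and 0 were called lower against 12.3%. In liver mets all 6 genes with loops were called higher with FOXA1, from 1.55 for Csf3 to 4.67 for Cxcl2, against 49.4% of genes. None of the 6 was called lower there, against 7.47% of genes. The FOXA1 liver mets list was also the longest list, 1.61 times as long as HNF4G liver mets.

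**Figure D2:**
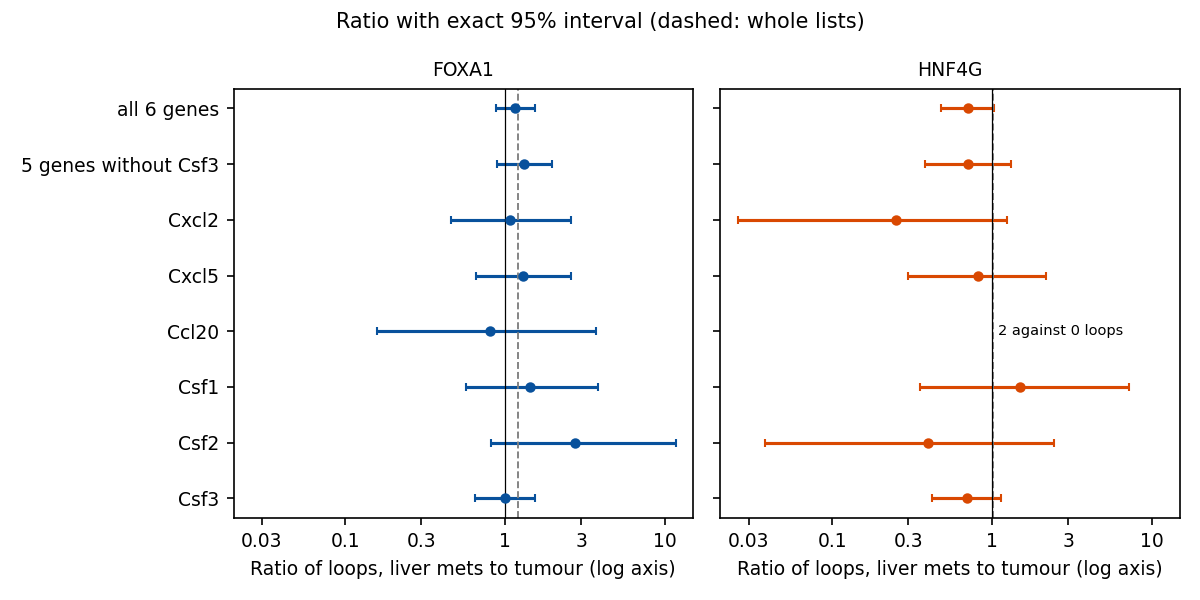
Ratio of loops in liver mets to loops in tumour (horizontal log axis) for FOXA1 (left) and HNF4G (right), for all 6 genes with loops together, for the 5 without Csf3 and for each gene, with exact 95% intervals and a dashed line at the ratio of the whole lists. For FOXA1 the point for all 6 genes lies at 1.16 and for HNF4G at 0.704, and every interval drawn crosses 1.

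Summed over the members, 94, 109, 71 and 50 loops were listed. The liver mets to tumour ratio was 1.16 (exact interval 0.872 to 1.54) for FOXA1, close to 1.21 for the whole lists. For HNF4G it was 0.704 (0.48 to 1.03), below the 1.02 of the whole lists, and the interval held both 1 and 1.02. The FOXA1 to HNF4G ratio was 1.32 (0.962 to 1.83) in tumour against 1.36 for the whole lists. In liver mets it was 2.18 (1.55 to 3.11) against 1.61, and divided by list length it fell to 1.36 (0.961 to 1.93).

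Without Csf3 the sums were 47, 62, 28 and 20 loops. The FOXA1 to HNF4G ratio in liver mets was then 3.1 (1.85 to 5.42), and 1.93 (1.15 to 3.37) after division by list length. In tumour it was 1.68 (1.03 to 2.78), and 1.23 (0.755 to 2.04) after division. Of single genes in liver mets, Cxcl2 had 13 against 2 loops, a ratio of 6.5 (1.47 to 59.3) that became 4.04 (0.915 to 36.9) after division. Csf2 had 11 against 2 (5.5, interval 1.2 to 51.1) and Cxcl5 had 22 against 9 (2.44, interval 1.08 to 6.03), and after division the intervals of both reached below 1.

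Each loop carried a value, deposited without a name and read here as the −log10 of an adjusted p, with a top of 20. Many loops of a list shared 1 of 2 tied values, the higher of which was 1.91, 1.87, 1.99 and 1.99 and the lower 0.123, 0.0889, 0.171 and 0.146. Values of 2 or more lay above both of these tied values and were held by 7.84%, 9.33%, 7.32% and 7.21% of the lists. Because the ties differ, the same value in different lists need not stand for the same evidence. On the reading used here the lower tied values stand for a high adjusted p, so a loop listed at them has weak support. Of member loops 16, 23, 12 and 9 had a value of 2 or more (17.0%, 21.1%, 16.9% and 18.0%), against 8.27%, 9.41%, 8.18% and 7.86% of loops at protein-coding starts. Csf3 had 15, 17, 11 and 9 of these. Cxcl5 had 1, 5, 1 and 0, Cxcl2 had 0, 2, 0 and 0, and Ccl20, Csf1 and Csf2 had 0 in every list.

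The Cxcl cluster spanned 144.5 kb, from the first start of Cxcl5 to the last start of Cxcl2 (chr5:90759360-90903873), and held 9 anchors. Besides the Cxcl5 and Cxcl2 anchors, these lay at Ppbp (platelet basic protein), at Cxcl3, at Cxcl15, at the non-coding Gm43086, and at 3 intergenic sites, 1 near Pf4 (platelet factor 4) and 2 before Cxcl1. Of the 36 possible anchor pairs 18 were loops in FOXA1 tumour (Poisson interval 10.7 to 28.4), 25 in FOXA1 liver mets (16.2 to 36.9), 12 in HNF4G tumour (6.2 to 21.0) and 10 in HNF4G liver mets (4.8 to 18.4). FOXA1 liver mets thus filled 69.4% of pairs (Wilson interval 53.1 to 82.0) and HNF4G liver mets 27.8% (15.8 to 44.0). FOXA1 tumour filled 50% and HNF4G tumour 33.3%. Over all 131890 anchor pairs of the genome at the same range of spans, 38.4%, 42.9%, 29.0% and 31.7% were loops. The pairs of a cluster share anchors and are not independent of each other.

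The FOXA1 lists parted most at spans of 50 to 100 kb. There FOXA1 liver mets joined 9 of 10 cluster pairs (90.0%, against 38.4% genome-wide), FOXA1 tumour 4 (40.0%, against 33.8%), HNF4G tumour 3 and HNF4G liver mets 2. All of these FOXA1 loops had low values, at most 0.377 in FOXA1 liver mets and at most 0.697 in FOXA1 tumour. Under 50 kb FOXA1 tumour had 10 and FOXA1 liver mets 11 of 16 pairs, and HNF4G tumour had 6 and HNF4G liver mets 7. The Gm43086 anchor, 73.07 kb from the Cxcl5 start, had 0 loops inside the cluster in FOXA1 tumour and 7 in FOXA1 liver mets, all at the lower tied value of 0.0889. Only 1, 4, 1 and 0 loops inside the cluster had a value of 2 or more.

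**Figure D3:**
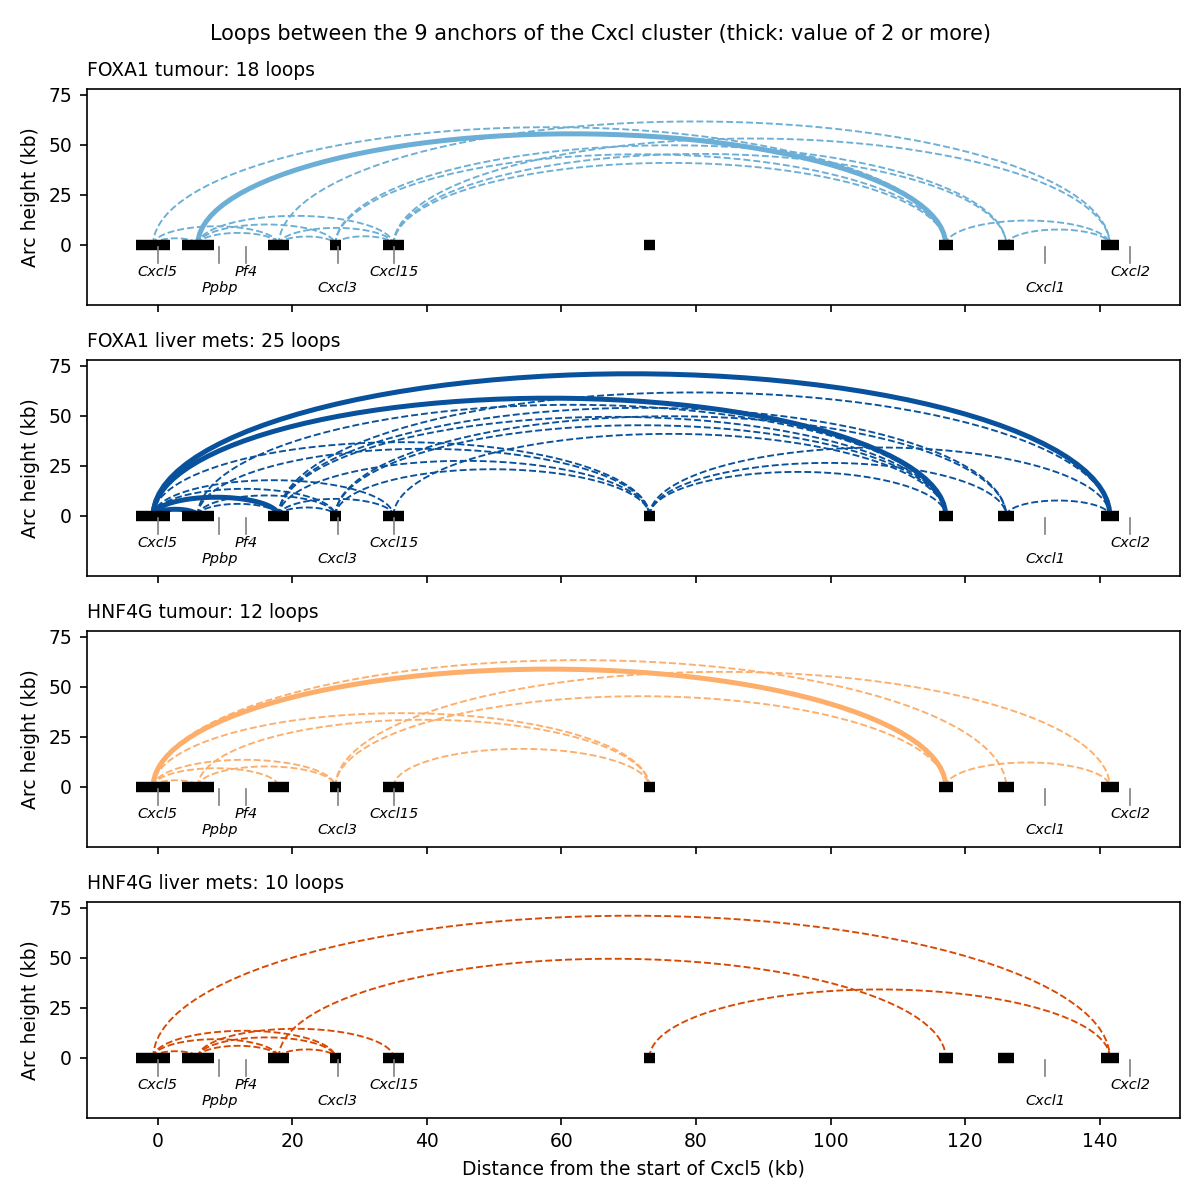
Loops between the 9 anchors of the Cxcl cluster (black blocks) drawn as arcs along the distance in kb from the Cxcl5 start, one panel per list, with thick solid arcs for values of 2 or more and thin dashed arcs for the rest. The FOXA1 liver mets panel holds 25 arcs, 4 of them thick, and the HNF4G liver mets panel holds 10, none of them thick.

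Of the 33 distinct loops inside the cluster 3 were in all 4 lists and 12 were in 1 list. The loop from Cxcl5 to Ppbp (6.629 kb) had values of 1.87, 4.49, 1.83 and 1.7. The loop from Cxcl5 to the intergenic anchor chr5:90775802-90778851 (18.66 kb), 2.91 kb from a start of Pf4, had values of 1.58, 2.19, 0.978 and 0.816. The loop from Ppbp to Cxcl3 (20.45 kb) had low values of 0.33, 0.259, 0.171 and 0.146. In the first 2 of these the FOXA1 liver mets value was the highest of the 4.

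The Cxcl5 and Cxcl2 anchors were joined directly, across 142.2 kb, in both liver mets lists and in neither tumour list. The value was 3.47 in FOXA1 liver mets and 1.61 in HNF4G liver mets. The Cxcl5 anchor also met chr5:90875459-90877483, an intergenic anchor 13.8 kb before Cxcl1, across 117.8 kb. That loop had values of 1.16 in FOXA1 tumour, 4.75 in FOXA1 liver mets and 2.32 in HNF4G tumour, and was not listed in HNF4G liver mets. Cxcl5 met the anchor nearest to Cxcl1 in HNF4G tumour only (126.8 kb, value 1.48), and Cxcl2 met it in both FOXA1 lists (15.49 kb, values 0.314 and 0.0836), a contact given because it is the one nearest to Cxcl1.

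Outside the cluster, Cxcl5 had 1 loop in all 4 lists, to the intergenic anchor chr5:90717524-90719867 at 39.97 kb, whose window was printed above. Its values of 0.123, 0.0875, 0.171 and 0.146 lay at or beside the lower tied value of each list. On the reading used here they stand for a high adjusted p, so being listed in all 4 lists is weak evidence for this contact. The loop to Parm1 at 759.9 kb was in FOXA1 liver mets alone (value 3.78). For Cxcl2 the loop to Rassf6, a Ras-association domain gene, at 288.8 kb was in both FOXA1 lists (values 1.78 and 3.09). The loop from Cxcl2 to Rchy1 at 1061 kb was in both tumour lists (values 1.91 and 1.99, the higher tied values).

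Rassf6 and the genes of the epidermal growth factor family, neighbors of the cluster on either side, were singled out after their values were seen. The Cxcl5 anchor met the same Rassf6 anchor as Cxcl2 across 146.5 kb, in FOXA1 tumour (2.49) and FOXA1 liver mets (1.15). Other anchors in Rassf6 were met in lists of both factors. With HNF4G, Cxcl2 met them at 278.8 and 259.5 kb in HNF4G tumour (1.87 and 1.83). Cxcl5 did so at 155.0 and 136.5 kb in HNF4G liver mets (1.66 and 1.57). Cxcl5 reached Areg (amphiregulin) at 380.3 kb in FOXA1 liver mets (1.7), Ereg (epiregulin) at 313.7 kb in HNF4G liver mets (1.91) and Btc (betacellulin) at 643.3 kb in HNF4G tumour (1.99). Cxcl2 reached Ereg at 171.4 kb in FOXA1 liver mets (1.34). None of these loops to growth factor genes was shared by lists.

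**Figure D4:**
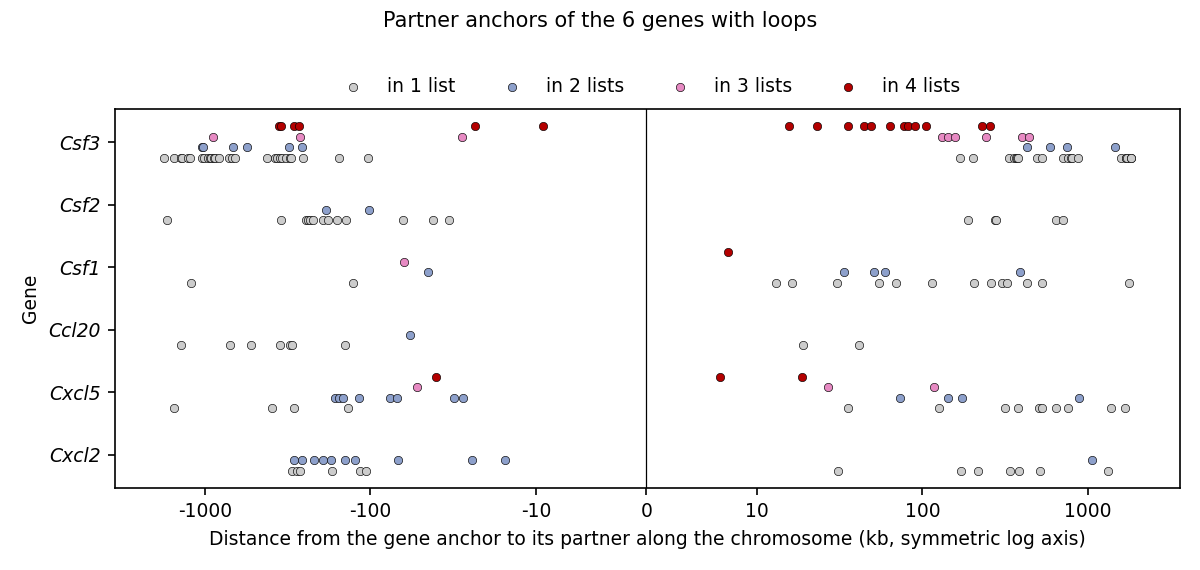
Distance from each gene's anchor to its partner anchors along the chromosome (horizontal axis, kb, symmetric log scale) for the 6 genes with loops, each point 1 distinct loop coloured by the number of lists that hold it. Csf3 holds 18 of the 22 loops found in all 4 lists, Cxcl5 holds 3 and Csf1 holds 1.

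The Ccl20 anchor had 10 distinct loops and only 1 was in 2 lists, both FOXA1. This loop met an anchor at starts of Krtap28-13 and A030005K14Rik, 58.11 kb away, at the lower tied values of 0.123 and 0.0889. The highest values belonged to Tm4sf20 at 350.3 kb in HNF4G liver mets (1.94), to an intergenic anchor at 1390 kb in FOXA1 tumour (1.91) and to the shared promoter of the collagen genes Col4a3 and Col4a4 at 530.3 kb in FOXA1 tumour (1.9). Partners lay 5′ of Ccl20 in 8 of 10 loops.

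The Csf1 anchor had 22 distinct loops. The loop in all 4 lists went 7.381 kb upstream, to the intergenic anchor chr3:107765184-107769405 that held the forkhead and HNF4 letters shown above. Its values were 1.85 in FOXA1 tumour, 0.116 in FOXA1 liver mets, 0.16 in HNF4G tumour and 1.12 in HNF4G liver mets, so that neither factor and neither line was high throughout. Higher values belonged to loops in 1 list each, to Amigo1 at 426.7 kb (HNF4G liver mets, 1.96), to the shared promoter of Cept1 and Dram2 at 1212 kb and to an intron of Vav3 at 1781 kb (both FOXA1 liver mets, 1.87). Of the 22 partners 18 lay 5′ of Csf1, and their median span of 91.99 kb was the shortest of the 6 genes.

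The Csf2 anchor had 20 distinct loops, 18 of them in 1 list. The highest values, 1.99 in HNF4G tumour, were the tied value of that list and belonged to an intergenic anchor at 1698 kb and to Tnip1, an inhibitor of NF-kappaB signaling, at 706.6 kb. The next was an intergenic anchor 9.52 kb from Gpx3, at 642.6 kb, in FOXA1 liver mets (1.86). Only 2 loops were in 2 lists, to Pdlim4 at 186.7 kb in both FOXA1 lists (1.57 and 1.42) and to an intergenic anchor at 101.9 kb in FOXA1 liver mets (0.0889) and HNF4G tumour (1.11). Partners lay 3′ of Csf2 in 15 of 20 loops.

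The Csf3 anchor had 85 distinct loops, and 18 were in all 4 lists. The loop to Nr1d1, a clock repressor gene, at 63.6 kb had values of 7.91, 12.2, 6.64 and 7.52, well above both tied values of every list. The loop to the intergenic anchor chr11:98785646-98789915 at 81.69 kb had values of 5.31, 5.36, 2.59 and 12.4. The loop to the intergenic anchor chr11:98696091-98697400, 9.34 kb upstream and printed above, had values of 8.41, 1.87, 2.72 and 5.98. The highest value came from FOXA1 liver mets for Nr1d1, from HNF4G liver mets for the anchor at 81.69 kb and from FOXA1 tumour for the anchor at 9.34 kb.

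Upstream of Csf3, the loop to Erbb2, the HER2 receptor gene, at 290.2 kb had values of 3.31, 4.94, 10.9 and 1.91. Around it, loops in all 4 lists met Mien1 at 269.8 kb, Ppp1r1b with Stard3 at 348.6 kb and Ppp1r1b at 357.7 kb, with values of at most 3.54. Downstream, on the side of Nr1d1, the Csf3 anchor met 3 anchors at Rara, the retinoic acid receptor alpha gene, at 228.5, 242.0 and 256.0 kb. The middle one had values of 3.16, 20.0 and 7.72, the second at the top of the scale, and was not listed in HNF4G liver mets. The farthest was in all 4 lists with values of 7.59, 4.84, 1.83 and 5.61.

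The other loops of Csf3 in all 4 lists met Psmd3 at 23.42 kb, 2 anchors at Med24, 3 at Thra, Msl1 at 89.86 kb, Casc3 at 104.8 kb and an intergenic anchor at 77.24 kb. After the Rara loop at 242.0 kb, the highest loops outside that set were to Lasp1 at 899.3 kb (1.91, 9.17 and 1.99) and to an intergenic anchor near Tns4 at 399.0 kb (1.86, 8.04 and 3.64). Both were absent from HNF4G liver mets, as was that Rara loop, and all 3 had their highest value in FOXA1 liver mets. These 3 were picked for high values among loops not in all 4 lists, so what they share is not a separate result.

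**Figure D5:**
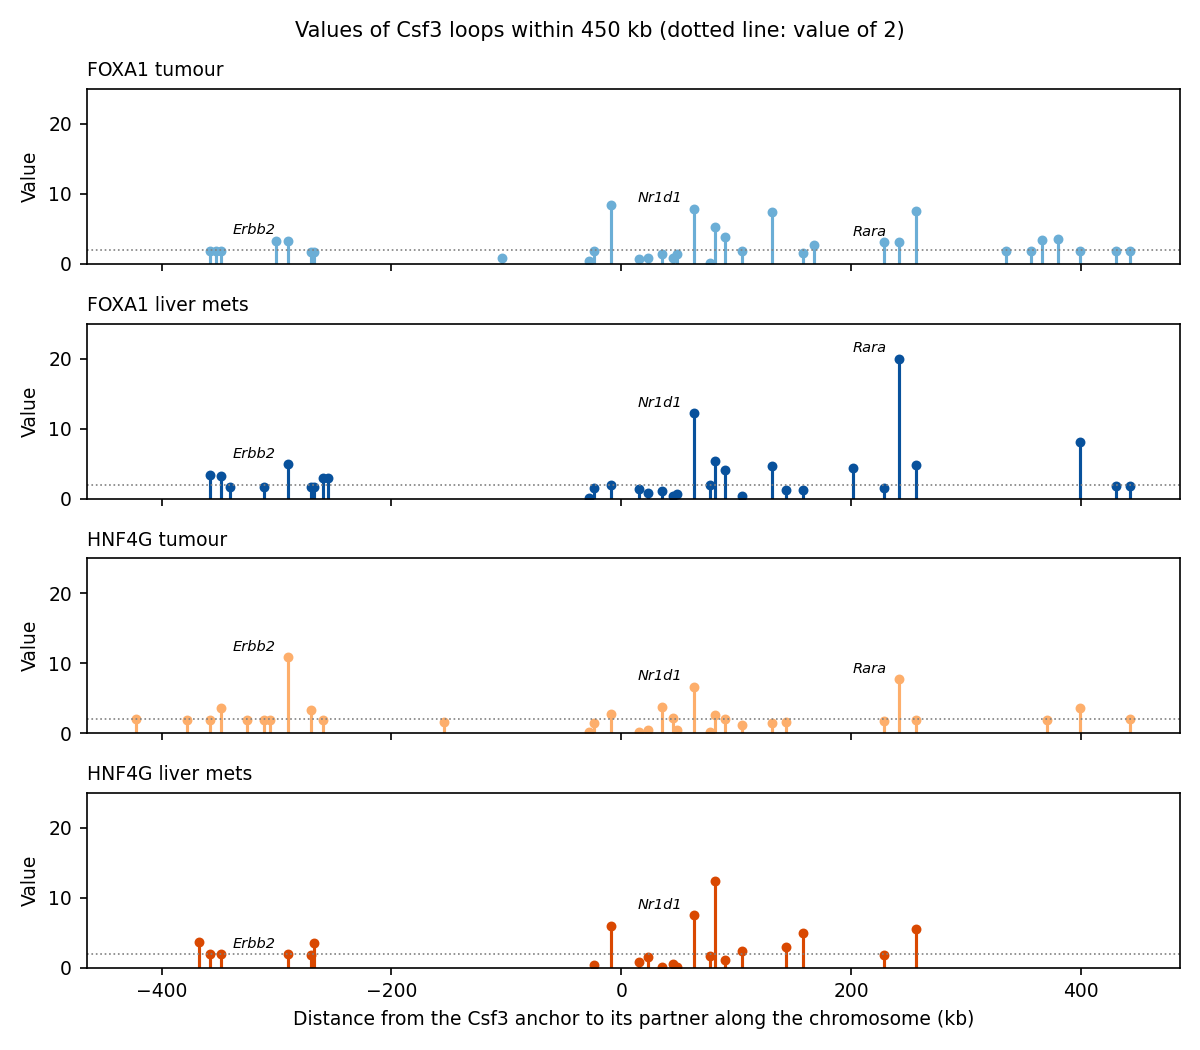
Value of each Csf3 loop (vertical axis, taken as −log10 of an adjusted p) against the distance in kb from the Csf3 anchor to its partner, one panel per list, for partners within 450 kb, with a dotted line at a value of 2. The Nr1d1 loop stands between 6.64 and 12.2 in every panel, and the Rara loop at 242.0 kb reaches 20.0 in FOXA1 liver mets and is absent from HNF4G liver mets.

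Spans of member loops were compared with loops at all protein-coding starts. The share of long loops, with at least 100 kb between anchor midpoints, was 68.1% (Wilson interval 58.1 to 76.6) in FOXA1 tumour, 68.8% (59.6 to 76.7) in FOXA1 liver mets, 67.6% (56.1 to 77.3) in HNF4G tumour and 54.0% (40.4 to 67.0) in HNF4G liver mets. For all protein-coding starts it was 61.0%, 64.5%, 59.6% and 56.0%, each inside the members' interval. The median span of member loops was 180.1, 217.6, 228.5 and 139.4 kb against 153.3, 177.6, 146.4 and 126.9 kb. Within the members, Csf3 loops had the longest median span over distinct loops (379.9 kb), followed by Ccl20 (301.1 kb), Csf2 (207.4 kb), Cxcl2 (205.9 kb), Cxcl5 (144.3 kb) and Csf1.

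List membership was counted over distinct loops, whatever their value. Of the 192 member loops 117 (60.9%, Wilson interval 53.9 to 67.6) were in 1 list, 40 (20.8%) in 2, 13 (6.77%) in 3 and 22 (11.5%, interval 7.69 to 16.7) in all 4. Of loops at all protein-coding starts 66.0%, 19.5%, 9.0% and 5.5% were in 1, 2, 3 and 4 lists. Without Csf3, 107 loops remained, with 64.5% in 1 list and 3.74% (1.46 to 9.22) in all 4. The Csf3 anchor had 18 of the 22 loops in all 4 lists. The largest set was found in FOXA1 liver mets alone, with 44 loops, followed by 31 in FOXA1 tumour alone, 25 in HNF4G tumour alone and 17 in HNF4G liver mets alone.

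The genes differed in how their loops were shared. Of Cxcl5 loops 13 were in both FOXA1 lists and 4 in both HNF4G lists, and 10 of 32 were found with both factors. Of Csf3 loops 30 were in both FOXA1 lists and 19 in both HNF4G lists, and 33 of 85 were found with both factors. Cxcl2, Ccl20 and Csf2 had no loop in both HNF4G lists, and had 4, 1 and 1 in both FOXA1 lists. A partner with a protein-coding start within 2 kb was met by 52 of 85 Csf3 loops, 14 of 32 Cxcl5, 8 of 24 Cxcl2, 8 of 22 Csf1, 8 of 20 Csf2 and 4 of 10 Ccl20 loops.

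Other genes of the same pathways were counted from lists chosen by name, against 49.6% of all protein-coding genes that had a loop in any list. Of 12 further CXC ligands 7 had an anchor, led by Cxcl16 with 16, 19, 7 and 11 loops, Cxcl11 with 18, 17, 7 and 5, and Cxcl17 with 8, 19, 9 and 11. Of 18 further CC and C ligands 5 had one, led by Ccl17 with 7, 10, 6 and 9 loops, Ccl5 with 6, 6, 3 and 4, and Ccl26 with 3, 6, 4 and 4. All 6 of these ligand genes had fewer loops than Csf3 in every list, and all but Ccl26 had more than Ccl20 in every list.

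Of 21 receptor genes 3 had an anchor: the scavenging receptor Ackr3 with 12, 10, 7 and 4 loops, the Cx3cl1 receptor Cx3cr1 with 3, 8, 1 and 5, and the Csf2 receptor chain Csf2ra with 1, 9, 3 and 2. Cxcr2, Ccr2, Ccr6, Csf1r and Csf3r, which receive the signals of the other members, had none. Of 13 other cytokine genes 8 had an anchor, led by Il33 with 30, 37, 21 and 27 loops, Flt3l with 23, 17, 15 and 15, and Il34, the second ligand of the Csf1 receptor, with 10, 23, 13 and 11. Il34 had more loops than Csf1 in every list.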

How the data were processed

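Hi-ChIP was measured in 8 samples, grouped by their titles into 4 groups of 2 replicates. Reads were mapped by the authors to mm10 with HiC-Pro 3.1.0 (DpnII fragments, duplicates removed) and loops were called with hichipper. Each group had 1 loop list, and neither the way the replicates were joined nor how anchors were chosen is given in the sources used here, and no minimum of read pairs is given either. The authors deposited an unnamed value per loop, taken here as −log10 of an adjusted p because of its tied values and its top of 20. The display score was not used. Read depth was not given, so loop counts were not adjusted for it, and their intervals cover counting error only.

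Starts came from GENCODE M21 on GRCm38, the assembly of mm10. Counts were given exact Poisson intervals, ratios Clopper-Pearson intervals and shares Wilson intervals, at 95% (Python 3.11.15, pandas 2.3.3, SciPy 1.17.1, pysam 0.24.0). No test was possible with 1 list per group. All 9 members were named. Loops named singly were those in all 4 lists and the 3 others with the highest value for each gene, and further ones chosen after their values were seen (loops of Ccl20 and Csf2 in 2 lists, loops near Cxcl1, at Rassf6 and at growth factor genes). Further ligands, receptors and cytokines came from name lists, of which the 3 with most loops were given. Gene families were counted over starts of all gene types. The members and lists were chosen with earlier results of these data known. Scripts were tested on simulated data. Alternatives were other start windows, value and span limits, matching distance, scaling by list length and leaving out Csf3.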

Additional observations from a re-analysis of the deposited data

Results flagged for a closer look

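The Csf2 loop counts went in opposite directions between the lines with the 2 factors. The ratio of liver mets to tumour loops, with 1 loop added, was 2.4 for FOXA1 (from 4 to 11 loops) and 0.5 for HNF4G (from 5 to 2 loops). Without the added loop it was 2.75 (exact interval 0.815 to 11.8) and 0.4 (0.0381 to 2.44), and both intervals held 1. Each value rests on 1 list per group, so this difference was not tested.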

How the results depend on the processing

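No paired analysis was possible because each group had 1 loop list that covered both replicates. Divided by list length, 5 ratios crossed 1, each with an interval that held 1 before and after. FOXA1 liver mets to tumour went from 1.16 to 0.961 over all members and from 1.08 to 0.898 for Cxcl2. FOXA1 to HNF4G in tumour went from 1.32 to 0.97 over all members and from 1.09 to 0.801 for Csf3, and in liver mets from 1.57 to 0.974 for Csf3. Sums, shares and ratios that moved by more than their error are given here in the order FOXA1 tumour, FOXA1 liver mets, HNF4G tumour, HNF4G liver mets. With starts within 5 kb, 326 distinct loops were found, and 152, 196 and 82 loops in both FOXA1 lists and HNF4G liver mets. With values of 2 or more, 41 distinct loops and 16, 23, 12 and 9 loops remained, 73.2% in 1 list and 4.88% in all 4, with 78.3% long loops in FOXA1 liver mets. Inside the Cxcl cluster that limit left 1, 4, 1 and 0 loops, and adding 100 kb on each side gave 55, 74, 26 and 26. Without Csf3, an alternative chosen after seeing the data, 107 distinct loops and 47, 62, 28 and 20 loops were left, 3.74% in all 4 lists, with 40.0% long loops in HNF4G liver mets. Divided by list length, the FOXA1 to HNF4G ratio over all members in liver mets was 1.36. Long loops made up 80.9%, 79.8%, 78.9% and 68.0% at 50 kb or more and 47.9%, 51.4%, 53.5% and 40.0% at 200 kb or more. With anchors widened by 5 kb before matching, 32.3% of member loops were in 1 list and 24.5% in all 4. The remaining 75 recomputed sums, shares and ratios over the members or the cluster stayed within their error or within 1.5 times of the reported value. Some intervals nevertheless ceased to hold 1. With starts within 5 kb, the FOXA1 liver mets to tumour ratio was 1.29 (1.04 to 1.6). The FOXA1 to HNF4G ratio in tumour was then 1.5 (1.16 to 1.96). Both intervals still held the whole-list ratios of 1.21 and 1.36. The start window and gene record alternatives were not run for the cluster, since its edges are starts of Cxcl5 and Cxcl2. Counts of single genes moved 34 times: 23 times with values of 2 or more, 4 times for Cxcl2 with the start inside the anchor, and 7 times within 5 kb, where Csf1 had 24, 41, 12 and 16 loops and Cxcl5 28, 42 and 16 (HNF4G tumour left out).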
